A study of Homo sapiens with 16 samples.

Results

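The genes described here are 10 members of the YAP/TEAD arm of the Hippo pathway, taken by gene symbol from a table of 78986 annotated features: the secreted proteins CCN1, CCN2 and TGFB2, the ankyrin-repeat protein ANKRD1, the angiomotin-like proteins AMOTL1 and AMOTL2, the transcription factor TEAD1, the co-activators YAP1 and WWTR1, and the kinase LATS2. All 10 symbols were found, each in 1 row, and all 10 passed the filter on low values. The RNA came from T47D, an established luminal, oestrogen receptor-positive breast cancer line grown in high-glucose medium with serum. The study crossed loss of FAH, fumarylacetoacetate hydrolase, which carries out the last step of tyrosine breakdown, with abemaciclib, an inhibitor of the cyclin-dependent kinases CDK4 and CDK6. There were 16 libraries in 4 groups of 4: FAH knockout cells given 500 nM abemaciclib for 3 days, FAH knockout cells given vehicle (DMSO) for 3 days, cells with a control guide given the same abemaciclib treatment, and cells with a control guide given vehicle. Whether the knockout was a clone or a pool is not given in the sources used here.

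In the Hippo pathway, a kinase cascade that ends in LATS1 and LATS2 phosphorylates YAP1 and its relative TAZ, the product of WWTR1, which keeps them out of the nucleus. When the kinases are inactive, YAP1 and TAZ enter the nucleus and bind TEAD factors, and CCN1, CCN2 and ANKRD1 are among the most used readouts of that activity. AMOTL1, AMOTL2 and LATS2 are both regulators of YAP1 and TAZ and known targets of them, and TGFB2 is a ligand of the transforming growth factor beta family. In mammary epithelium the pathway is known for linking cell density and attachment to growth. None of this activity was assayed in the study: the data are RNA levels only.

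Each library held between 9915776 and 11963093 reads assigned to features, read off the step that 1 read makes in the deposited CPM, counts per 1000000 assigned reads. Nothing in the labels ties the libraries to separate cultures, so the p-values may reflect technical spread alone. In control cells given abemaciclib, replicate 1 lay further from the other libraries of its group than other pairs did, with a chi-square per degree of freedom of 1.87 to 2.31 against each of them. The other pairs of libraries within groups had 1.1 to 1.46. FAH itself averaged 5.76 ± 0.744 CPM in knockout cells and 24.0 ± 1.35 CPM in control cells under abemaciclib, and 6.65 ± 0.323 CPM in knockout cells and 26.5 ± 1.57 CPM in control cells under vehicle (SD, n = 4 each). Marker genes matched the luminal label. All 11 luminal markers passed the filter, whereas 5 of 6 basal markers, KRT5 and KRT14 among them, and 6 of 11 mesenchymal and fibroblast markers (COL1A2, DCN, PDGFRA, PDGFRB, FAP and POSTN) did not, although no marker was at 0 in all libraries.

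The upstream windows of CCN2, ANKRD1 and TGFB2 are shown because the first 2 are standard TEAD readouts and the third is the ligand among the members. Each is the 250 bases before the gene's RefSeq start on GRCh38.p14, written 5′ to 3′ on the gene's strand, and capitals mark the letters GGAATG, the core bound by TEAD factors, or their reverse complement CATTCC.
CCN2, chr6:131951373-131951622, minus strand: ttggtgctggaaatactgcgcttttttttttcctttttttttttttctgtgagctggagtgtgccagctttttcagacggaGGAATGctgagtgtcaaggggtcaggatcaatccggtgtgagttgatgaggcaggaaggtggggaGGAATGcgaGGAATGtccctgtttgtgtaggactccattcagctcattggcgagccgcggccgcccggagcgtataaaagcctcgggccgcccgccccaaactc
ANKRD1, chr10:90921088-90921337, minus strand: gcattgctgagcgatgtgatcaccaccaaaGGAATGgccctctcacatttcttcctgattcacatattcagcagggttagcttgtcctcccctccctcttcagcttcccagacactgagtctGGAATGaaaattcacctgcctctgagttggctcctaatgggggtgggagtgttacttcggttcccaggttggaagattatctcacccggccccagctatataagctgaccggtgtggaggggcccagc
TGFB2, chr1:218345086-218345335, plus strand: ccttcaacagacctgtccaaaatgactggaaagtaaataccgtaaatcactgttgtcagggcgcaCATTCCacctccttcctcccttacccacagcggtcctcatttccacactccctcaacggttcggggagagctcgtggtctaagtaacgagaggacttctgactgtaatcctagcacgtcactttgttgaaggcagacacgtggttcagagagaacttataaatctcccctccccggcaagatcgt
CCN2 held 3 matches, which began 169, 104 and 95 bases before the start. ANKRD1 held 2, at 220 and 128 bases, and TGFB2 held 1 in the reverse orientation, at 185 bases. Over 35116 RefSeq windows of the same length, 11.9% held at least 1 match on either strand, 0.94% at least 2 and 0.0826% at least 3. YAP1 held 1 match, AMOTL2 held 1 at 1 of its 2 listed starts, and AMOTL1, WWTR1 and LATS2 held none in these windows. For TGFB2, RefSeq lists a start upstream of the gene's GENCODE start given with its values. The windows of AMOTL1 (chr11:94768106-94768355) and WWTR1 (chr3:149658026-149658275 and chr3:149703274-149703523) lie inside the GENCODE gene, far downstream of its start. Sequence before those GENCODE starts was not searched, so the lack of a match does not describe it. The AMOTL2 window with a match (chr3:134374448-134374697) also lies inside the GENCODE gene. Its other window (chr3:134375418-134375667) spans the GENCODE start and held none. The ANKRD1 window spans its GENCODE start too: the match at 220 bases lies before that start and the match at 128 bases lies inside the gene. The AP-1-like letters TGANTCA, with N as any base, were searched on both strands. They occurred in ANKRD1 at 195 bases, where they read TGATTCA, and in 6.57% of all windows. The CArG box, the site of serum response factor, occurred in none of the 8 members with a window and in 1.16% of all windows. A match describes the letters only, and binding was not measured.

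Abemaciclib raised CCN1 and TGFB2 in both genotypes, by log2 differences of 0.83 to 1.32, and both genes were also higher in FAH knockout cells under either treatment. CCN2 rose more with abemaciclib in knockout than in control cells, a difference that passed its own test. Among the regulators and TEAD1, log2 differences were at most 0.51 in size. A gene is called changed where the Benjamini-Hochberg adjusted p of limma's moderated test over 16218 genes was below 0.05, and log2 differences are those of log2(CPM + 1), where the added 1 shrinks the changes of genes near 1 CPM. In knockout against control cells under vehicle, 6 of the 10 members were called higher and none lower, where 24.6% of all tested genes were called higher, 13.1% lower and 37.7% in either direction. Under abemaciclib, 7 were higher and none lower, against a background of 18.6% higher, 11.3% lower and 29.9% in either direction. The members were chosen with earlier results of these data known, so counts or medians above the background are not independent evidence.

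With abemaciclib against vehicle, 4 members rose in knockout cells and none fell, where 11% of all tested genes rose, 27.4% fell and 38.4% were called in either direction. In control cells, 4 rose and 1 fell, against a background of 19.6% rising, 31.1% falling and 50.7% in either direction. The drug effect in knockout cells differed from that in control cells for 2 members, both with a positive difference, where 4.68% of tested genes had a positive difference called, 6.16% a negative one and 10.8% a difference of either sign. The median log2 difference over the 10 members was 0.14 in knockout against control cells under vehicle, where that of all tested genes was 0.06. Under abemaciclib the member median was 0.38 and that of all tested genes 0.04. For abemaciclib against vehicle it was 0.15 in knockout cells and 0.03 in control cells, where all tested genes had medians of -0.07 and -0.05. These counts depend on scaling. After median-of-ratios rescaling, the genes called higher and lower over all tested genes were 2126 and 2408 for knockout against control cells under abemaciclib, against 3020 and 1837, and 2825 and 2983 under vehicle, against 3987 and 2121. For abemaciclib against vehicle they were 3173 and 2886 in knockout cells, against 1780 and 4444, and 4166 and 4017 in control cells, against 3181 and 5039, so the excess of falling genes was lost. With median-of-ratios rescaling 3 members, CCN1, TGFB2 and AMOTL1, remained called in knockout against control cells under vehicle.

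**Figure D1:**
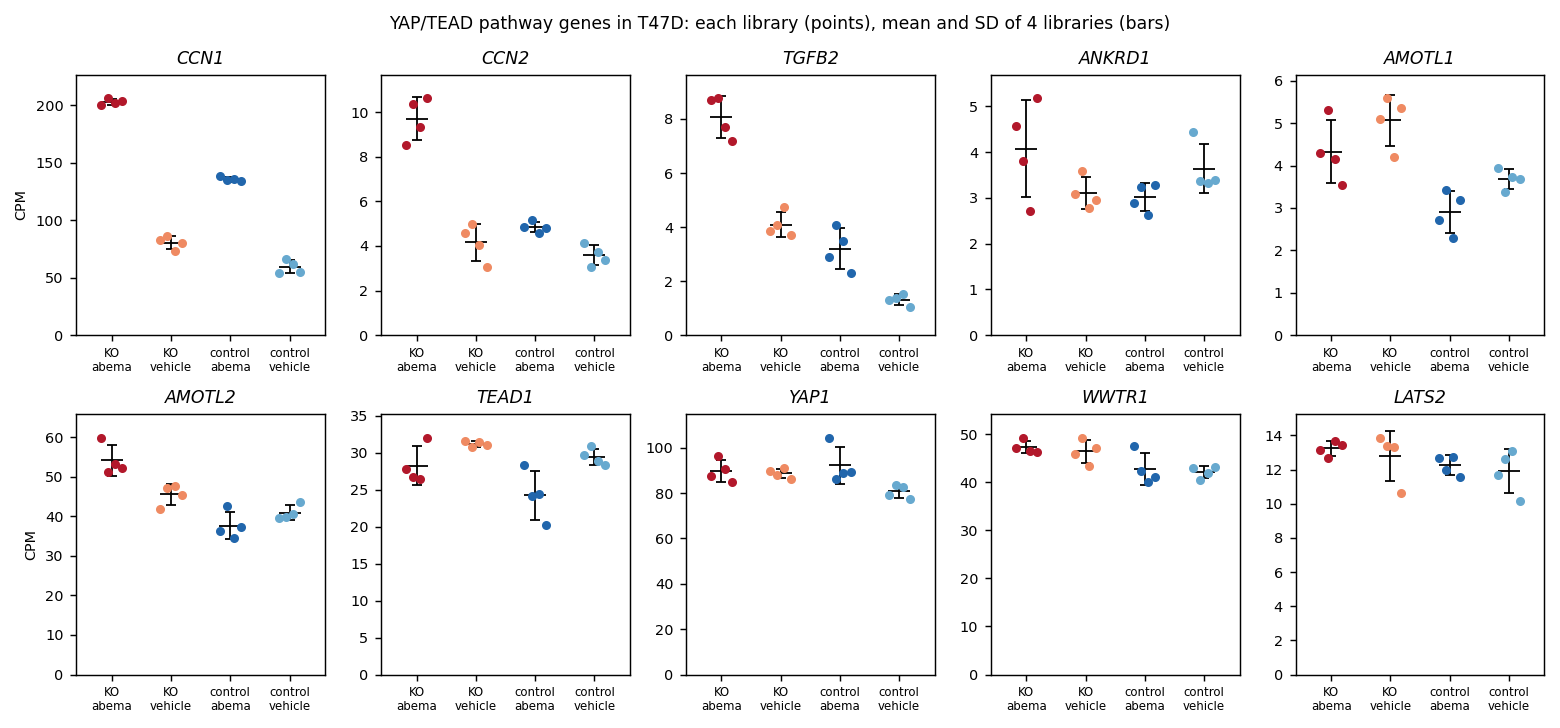
Level of each of the 10 members in CPM (vertical axis, from 0, own scale per gene) in the 16 libraries, by group, with points for libraries and bars for the mean ± SD of 4 libraries. CCN1 separates all 4 groups, CCN2 and AMOTL2 set knockout cells given abemaciclib apart from the other groups, TGFB2 has knockout cells given abemaciclib at the top and control cells given vehicle at the bottom, and LATS2 overlaps throughout.

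CCN1 (chr1:85580761-85583962, plus strand, GENCODE annotation of GRCh38), formerly CYR61, encodes a secreted matricellular protein that binds integrins. It stood at 199.9, 206, 202 and 204 CPM in knockout cells given abemaciclib and at 83.3, 85.9, 73.3 and 80.0 CPM in knockout cells given vehicle. In control cells it stood at 139, 135, 136 and 134 CPM with abemaciclib, against 54.6, 66.4, 62.4 and 54.9 CPM with vehicle. No 2 of the 4 groups overlapped, and the order was knockout with abemaciclib, control with abemaciclib, knockout with vehicle, control with vehicle. With the drug the mean was 2.52-fold higher in knockout cells and 2.28-fold higher in control cells, log2 differences of 1.32 and 1.18 (SE 0.0495 each, limma adjusted p = 1.78e-21 and 4.53e-20). Knockout cells exceeded control cells 1.5-fold under abemaciclib (log2 difference 0.58, adjusted p = 3.22e-11) and 1.35-fold under vehicle (0.43, adjusted p = 1.31e-08). The difference between the 2 drug effects was 0.14 with a 95% interval of 0.00 to 0.29, and did not pass the threshold (limma adjusted p = 0.208).

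CCN2 (chr6:131948176-131951373, minus strand), formerly CTGF, encodes the connective tissue growth factor, a matricellular relative of CCN1. It stood at 8.51, 10.4, 9.34 and 10.6 CPM in knockout cells given abemaciclib, against 4.60, 4.99, 4.03 and 3.05 CPM in knockout cells given vehicle. In control cells it stood at 4.86, 5.17, 4.59 and 4.82 CPM with abemaciclib, against 4.13, 3.07, 3.73 and 3.39 CPM with vehicle. Knockout cells given abemaciclib lay above all other libraries, and knockout cells given vehicle overlapped both groups of control cells. These levels rest on 93 to 117 reads per library in knockout cells given abemaciclib and on 31 to 59 reads in each of the others. With the drug CCN2 was 2.33-fold higher in knockout cells (log2 difference 1.06 ± 0.112 SE, limma adjusted p = 1.51e-09) and 1.36-fold higher in control cells (0.36 ± 0.112, adjusted p = 0.00765).

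The drug effect on CCN2 was larger in knockout than in control cells by 0.70 on the log2 scale (95% interval 0.38 to 1.03, limma adjusted p = 0.00249). Between genotypes, CCN2 was 2.0-fold higher in knockout cells under abemaciclib (log2 difference 0.87, adjusted p = 1.97e-07). Under vehicle the difference was 0.16 with a 95% interval of -0.06 to 0.39 (limma adjusted p = 0.266), an interval that reaches from a small decrease to an increase of 0.39. Leaving out 1 library at a time gave values from 0.09 without replicate 2 of knockout cells given vehicle (limma adjusted p = 0.606) to 0.27 without replicate 4 of the same group (0.0526), none of which passed.

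TGFB2 (chr1:218346235-218444619, plus strand) encodes transforming growth factor beta 2, a secreted ligand that signals through SMAD2 and SMAD3. It stood at 8.69, 8.77, 7.69 and 7.17 CPM in knockout cells given abemaciclib, against 3.85, 4.09, 4.75 and 3.70 CPM in knockout cells given vehicle. In control cells it stood at 2.90, 4.07, 3.48 and 2.31 CPM with abemaciclib, against 1.31, 1.39, 1.51 and 1.04 CPM with vehicle. All 4 pairs of groups compared were free of overlap, while knockout cells given vehicle and control cells given abemaciclib overlapped. TGFB2 was 2.53-fold higher in knockout than in control cells under abemaciclib (log2 difference 1.13 ± 0.121 SE, limma adjusted p = 5.16e-09) and 3.12-fold higher under vehicle (1.14 ± 0.121, adjusted p = 3.07e-09). With the drug it was 1.97-fold higher in knockout cells (0.83, adjusted p = 9.97e-07) and 2.43-fold higher in control cells (0.84, adjusted p = 4.43e-07).

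The drug effects on TGFB2 in knockout and control cells differed by -0.01 on the log2 scale (95% interval -0.36 to 0.34, limma adjusted p = 0.982), an interval that spans changes of some size in either direction. TGFB2 rested on 79 to 99 reads per library in knockout cells given abemaciclib and on 11 to 15 in control cells given vehicle. TGFB2-OT1, an RNA annotated on the same strand inside TGFB2, averaged 4.74 CPM in knockout cells given abemaciclib, 2.22 CPM in knockout cells given vehicle, 2.01 CPM in control cells given abemaciclib and 0.643 CPM in control cells given vehicle. Reads of the pair may have been divided between them. With its reads added to TGFB2, an alternative chosen after seeing the data, the differences were 1.17 and 1.31 for knockout against control cells under abemaciclib and vehicle, and 0.92 and 1.06 for the drug in knockout and control cells, with the same calls.

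ANKRD1 (chr10:90912096-90921276, minus strand), a nuclear and sarcomeric ankyrin-repeat protein used as a YAP1 readout, was called in no comparison, unlike the 3 genes above. Its mean was highest in knockout cells given abemaciclib, as for those 3, but its range there overlapped that of control cells given vehicle. It stood at 4.57, 3.81, 2.72 and 5.18 CPM in knockout cells given abemaciclib, against 3.09, 3.59, 2.78 and 2.96 CPM in knockout cells given vehicle. In control cells it stood at 2.90, 3.24, 2.63 and 3.28 CPM with abemaciclib, against 4.44, 3.37, 3.33 and 3.39 CPM with vehicle. Replicate 3 of knockout cells given abemaciclib lay below the other 3 of its group and inside the range of control cells given abemaciclib. None of its 5 comparisons passed the threshold: the log2 difference was 0.32 in knockout against control cells under abemaciclib (limma adjusted p = 0.0616) and -0.17 under vehicle (0.311). For the drug it was 0.28 in knockout cells (adjusted p = 0.0814) and -0.20 in control cells (0.192), and the 2 drug effects differed by 0.49 (95% interval 0.12 to 0.86, limma adjusted p = 0.0812). Without that replicate 3, ANKRD1 passed in knockout against control cells under abemaciclib (0.46, limma adjusted p = 0.00593), for the drug in knockout cells (0.42, 0.00768) and for the difference between the drug effects (0.63, 0.0142). With all libraries, rescaling also put its drug effect in knockout cells past the threshold (0.35, limma adjusted p = 0.0283). Without the high replicate 1 of control cells given vehicle, ANKRD1 was at -0.09 in knockout against control cells under vehicle (limma adjusted p = 0.642) and at -0.12 for the drug in control cells (0.48).

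**Figure D2:**
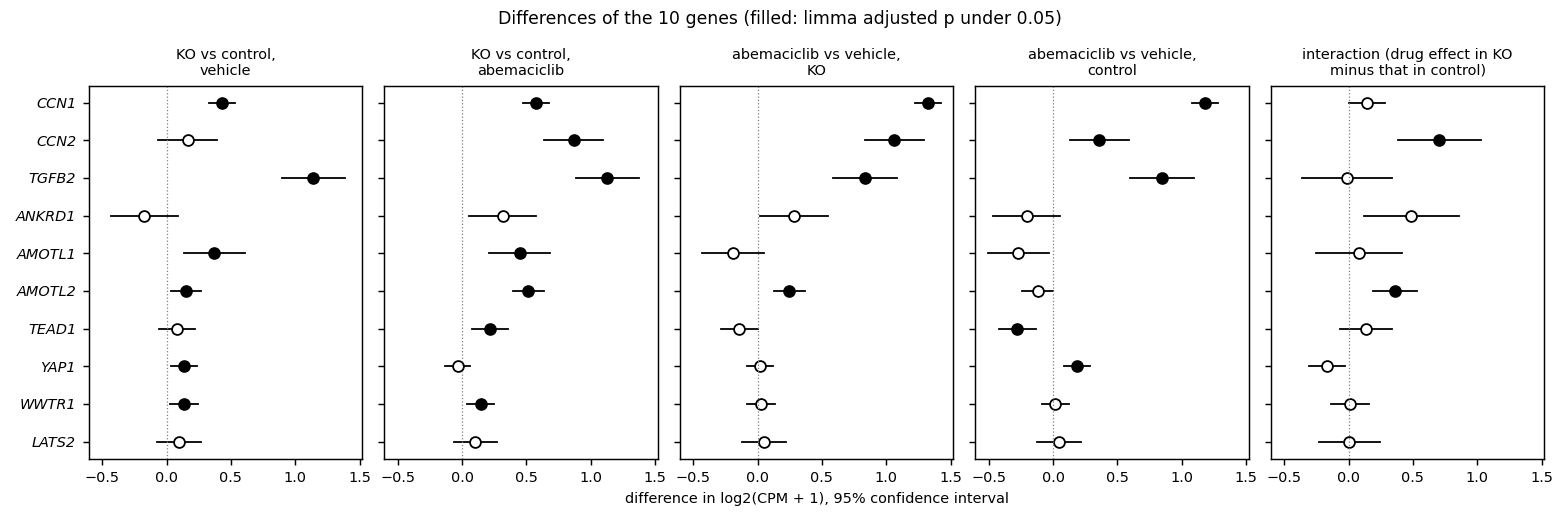
Log2 difference of each member on the log2(CPM + 1) scale (horizontal axis) with its 95% interval, in 5 panels for the 4 pairwise comparisons and for the difference between the drug effects, with filled points for calls at a limma adjusted p below 0.05. CCN1 and TGFB2 lie to the right in all 4 pairwise panels, and CCN2 (0.70) and AMOTL2 (0.36) are the filled points in the panel of differences between drug effects.

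AMOTL1 and AMOTL2 are junction-associated scaffold proteins that bind YAP1 and TAZ and hold them in the cytoplasm. AMOTL2 (chr3:134355874-134375479, minus strand) stood at 59.9, 51.3, 53.3 and 52.1 CPM in knockout cells given abemaciclib, against 41.9, 47.2, 47.6 and 45.4 CPM in knockout cells given vehicle. In control cells it stood at 36.3, 42.6, 34.5 and 37.2 CPM with abemaciclib, against 39.5, 39.8, 40.7 and 43.6 CPM with vehicle. Knockout cells given abemaciclib lay above every other library, and the remaining groups overlapped their neighbours. AMOTL2 was 1.44-fold higher in knockout than in control cells under abemaciclib (log2 difference 0.51 ± 0.059 SE, limma adjusted p = 1.95e-08). Under vehicle it was 1.11-fold higher (0.15, adjusted p = 0.0424), a call lost in 10 of 22 alternatives, among them rescaling (0.09, adjusted p = 0.26). It was also lost without replicate 2, 3 or 4 of knockout cells given vehicle (limma adjusted p = 0.111, 0.123 and 0.0714) or without replicate 1, 2 or 3 of control cells given vehicle (0.107, 0.0965 and 0.0742).

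With the drug AMOTL2 rose in knockout cells (log2 difference 0.24, limma adjusted p = 0.00113) and was at -0.12 in control cells (adjusted p = 0.094). Without replicate 2 of control cells given abemaciclib the value in control cells was -0.18 and passed the threshold as a fall (limma adjusted p = 0.0118). The 2 drug effects differed by 0.36 (95% interval 0.19 to 0.53, limma adjusted p = 0.00315). AMOTL2 had whole reads in 8 of 16 libraries, so its reads may be divided with other features and its level is uncertain to that extent. The same limit holds for WWTR1, with whole reads in 10 of 16 libraries, and for YAP1, with whole reads in 12 of 16.

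AMOTL1 (chr11:94706431-94876753, plus strand) stood at 4.30, 5.31, 4.16 and 3.54 CPM in knockout cells given abemaciclib, against 2.71, 3.42, 2.29 and 3.18 CPM in control cells given abemaciclib. With vehicle it stood at 5.10, 5.59, 4.21 and 5.36 CPM in knockout cells, against 3.93, 3.37, 3.73 and 3.68 CPM in control cells. Knockout and control cells did not overlap under either treatment. AMOTL1 was 1.49-fold higher in knockout cells under abemaciclib (log2 difference 0.45 ± 0.116 SE, limma adjusted p = 0.0032) and 1.38-fold higher under vehicle (0.37 ± 0.116, adjusted p = 0.0117). The drug gave -0.19 in knockout cells (adjusted p = 0.206) and -0.27 in control cells (0.0524), the last of which passed the threshold in 9 alternatives. Among these, it passed without replicate 2 or 4 of control cells given abemaciclib (-0.33 and -0.31, limma adjusted p = 0.0269 and 0.0435) or without replicate 2 of control cells given vehicle (-0.30, 0.0483), and without 1 of 3 knockout libraries with its value unmoved.

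TEAD1 (chr11:12674591-12944483, plus strand), the DNA-binding partner of YAP1 and TAZ, stood at 27.8, 26.7, 26.5 and 32.0 CPM in knockout cells given abemaciclib, against 31.6, 30.7, 31.4 and 31.1 CPM in knockout cells given vehicle. In control cells it stood at 28.3, 24.1, 24.4 and 20.2 CPM with abemaciclib, against 29.6, 30.8, 28.9 and 28.4 CPM with vehicle. The control libraries given the drug lay below those given vehicle, and TEAD1 was the member that fell: its log2 difference was -0.14 in knockout cells (limma adjusted p = 0.111) and -0.28 ± 0.0701 SE in control cells (adjusted p = 0.00116). TEAD1 was 1.17-fold higher in knockout than in control cells under abemaciclib (0.22, adjusted p = 0.0171), with overlapping groups. That call was lost without replicate 4 of knockout cells given abemaciclib (0.16, limma adjusted p = 0.106) or without replicate 4 of control cells given abemaciclib (0.14, 0.126), and also with no filter (0.0951) or without the trend (0.0545). Without replicate 1 of control cells given abemaciclib, TEAD1 was at 0.29 between genotypes under abemaciclib and at -0.35 for the drug in control cells, both called (limma adjusted p = 0.000875 and 3.38e-05). Without replicate 4 of knockout cells given abemaciclib, its drug effect in knockout cells passed (-0.20, limma adjusted p = 0.028).

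The co-activators and LATS2 moved little. YAP1 (chr11:102110461-102233423, plus strand) stood at 87.4, 96.3, 90.6 and 85.0 CPM in knockout cells given abemaciclib, 89.5, 87.9, 91.0 and 86.2 CPM in knockout cells given vehicle, 104, 86.3, 88.7 and 89.1 CPM in control cells given abemaciclib and 79.1, 83.7, 82.7 and 77.4 CPM in control cells given vehicle. Control cells given vehicle were the low group and did not overlap the others. YAP1 was 1.14-fold higher with the drug in control cells (log2 difference 0.19 ± 0.0486 SE, limma adjusted p = 0.00172), or 0.12 (adjusted p = 0.016) without the high replicate 1. Under vehicle it was 1.1-fold higher in knockout than in control cells (0.13, adjusted p = 0.0283), a call that rescaling ended (0.07, adjusted p = 0.234). It was also lost without replicate 1 or 3 of knockout cells given vehicle (limma adjusted p = 0.0586 and 0.0767) or without replicate 1 or 4 of control cells given vehicle (0.0704 and 0.0927). The other YAP1 comparisons did not pass: knockout against control cells under abemaciclib gave -0.03 (limma adjusted p = 0.654), or 0.03 without the high replicate 1, and the drug in knockout cells gave 0.02 (0.81). The 2 drug effects on YAP1 differed by -0.17 (95% interval -0.31 to -0.03, limma adjusted p = 0.119).

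WWTR1 (chr3:149517235-149736714, minus strand) stood at 47.1, 49.1, 46.5 and 46.3 CPM in knockout cells given abemaciclib, against 47.6, 42.2, 40.1 and 41.0 CPM in control cells given abemaciclib. With vehicle it stood at 45.8, 49.3, 43.4 and 47.1 CPM in knockout cells, against 43.0, 40.5, 41.9 and 43.1 CPM in control cells. The overlap under abemaciclib came from replicate 1 of the control cells. Its log2 difference for knockout against control cells was 0.15 under abemaciclib (limma adjusted p = 0.0321) and 0.14 under vehicle (0.039). After rescaling, WWTR1 was at 0.10 under abemaciclib and 0.07 under vehicle, and neither passed (limma adjusted p = 0.133 and 0.272). Without replicate 1 of control cells given abemaciclib the value under abemaciclib was 0.20 (limma adjusted p = 0.0026). The call under abemaciclib was lost without replicate 1 or 2 of knockout cells given abemaciclib (limma adjusted p = 0.0526 and 0.0993) or without replicate 2, 3 or 4 of control cells given abemaciclib (0.0634, 0.12 and 0.0905). That under vehicle was lost without replicate 1, 2 or 4 of knockout cells given vehicle (limma adjusted p = 0.0535, 0.142 and 0.0857) or without replicate 2 or 3 of control cells given vehicle (0.111 and 0.0699). The drug effect on WWTR1 was 0.03 in knockout cells and 0.02 in control cells (limma adjusted p = 0.72 and 0.816), or -0.03 in control cells without that replicate 1 (0.597).

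LATS2 (chr13:20973032-21061547, minus strand), the kinase that phosphorylates YAP1 and TAZ, averaged 13.2 ± 0.434 CPM in knockout cells given abemaciclib, 12.8 ± 1.47 CPM in knockout cells given vehicle, 12.3 ± 0.575 CPM in control cells given abemaciclib and 11.9 ± 1.28 CPM in control cells given vehicle (SD, n = 4 each). All neighbouring groups overlapped. Its log2 differences for knockout against control cells were 0.10 under abemaciclib (95% interval -0.07 to 0.27) and 0.10 under vehicle (-0.07 to 0.27), and those for the drug were 0.05 in knockout cells (-0.12 to 0.22) and 0.04 in control cells (-0.13 to 0.21). None of the 5 comparisons of LATS2 passed the threshold. These intervals rest on the spread between libraries, which may be technical alone, so they do not bound the change between cultures that could have been missed. Over the alternatives the difference for knockout against control cells under vehicle ran from 0.03 to 0.18.

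Beside the members, 23 of 26 other Hippo kinases, scaffolds and regulators were measured above the filter. Relative to control cells, knockout cells had 7 called higher and 1 lower under abemaciclib (median log2 difference 0.11), and 8 higher and none lower under vehicle (median 0.14). Of all tested genes, 18.6% were called higher and 11.3% lower under abemaciclib, and 24.6% and 13.1% under vehicle. MAP4K4, a kinase upstream of LATS1 and LATS2, averaged 46.6 ± 2.62 CPM in knockout cells and 35.0 ± 2.07 CPM in control cells under abemaciclib, and 48.4 ± 2.32 CPM in knockout cells and 33.9 ± 1.5 CPM in control cells under vehicle (SD, n = 4 each; limma adjusted p = 3.47e-07 and 3.82e-09). WWC3, a KIBRA-family scaffold, was higher in knockout cells by 0.40 under abemaciclib and 0.30 under vehicle, and fell with the drug in knockout cells (-0.23) and in control cells (-0.33). With abemaciclib, 2 of the 23 regulators rose and 3 fell in knockout cells, and 1 rose and 3 fell in control cells. Over all tested genes, 11% rose and 27.4% fell in knockout cells, and 19.6% rose and 31.1% fell in control cells. The same shares are the background for the counts of the lists that follow.

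Among the other TEAD factors and the VGLL cofactors, some of which compete with YAP1 for TEADs, 5 of 7 genes were above the filter. VGLL1 averaged 2.08 ± 0.461 CPM in knockout cells given abemaciclib, 0.884 ± 0.197 CPM in knockout cells given vehicle, 0.858 ± 0.315 CPM in control cells given abemaciclib and 0.199 ± 0.085 CPM in control cells given vehicle (SD, n = 4 each). VGLL1 was called higher in all 4 pairwise comparisons, with log2 differences of 0.62 to 0.73. Its mean was above 1 CPM, the level of the filter, only in knockout cells given abemaciclib. In control cells given vehicle it went down to 0.0943 CPM, the value of 1 read, so these differences rest on few reads. TEAD2 was higher in knockout cells by 0.45 under abemaciclib and 0.35 under vehicle. TEAD4 under vehicle was lower in knockout cells than in control cells (-0.38, limma adjusted p = 0.000274) and fell with the drug in both genotypes (-0.42 in knockout and -0.74 in control cells), as did TEAD3 (-0.34 in knockout and -0.35 in control cells). The TEAD factors thus moved in different directions.

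**Figure D3:**
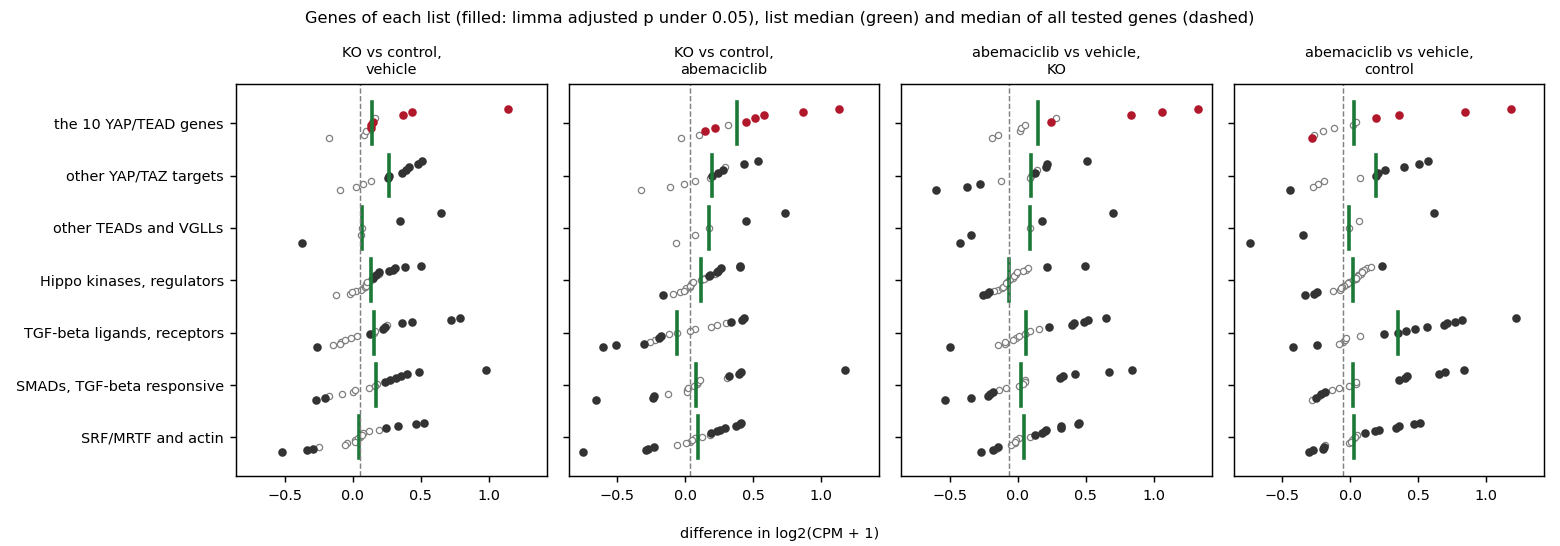
Log2 difference on the log2(CPM + 1) scale of every tested gene in the gene lists (vertical axis) for the 4 pairwise comparisons, with the 10 members in red, a green line for each list's median and a dashed line for the median of all 16218 tested genes. The members' median lies furthest above the dashed line in knockout against control cells under abemaciclib (0.38 against 0.04), and most lists scatter on both sides of it.

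Of 16 further genes commonly listed as YAP1 and TAZ targets, 11 passed the filter. Relative to control cells, knockout cells had 5 higher and none lower under abemaciclib (median 0.20), and 7 higher and none lower under vehicle (median 0.27). ASAP1, an Arf GTPase-activating protein, averaged 62.6 ± 2.66 CPM in knockout cells and 43.0 ± 2.62 CPM in control cells under abemaciclib, and 58.6 ± 2.43 CPM in knockout cells and 40.9 ± 2.30 CPM in control cells under vehicle (SD, n = 4 each). It was called in both (log2 differences 0.53 and 0.51) and not for the drug in knockout (0.10) or control cells (0.07). FJX1 showed the opposite weighting, with 0.51 in knockout and 0.58 in control cells for the drug, and 0.20 and 0.27 for knockout against control cells under abemaciclib and vehicle. With abemaciclib 4 of the 11 targets rose and 3 fell in knockout cells, and 6 rose and 1 fell in control cells. The 3 that fell in knockout cells were NUAK2 (-0.60, at most 1.82 CPM in any library), CCDC80 (-0.37) and GADD45A (-0.28). The 1 that fell in control cells was GADD45A (-0.45). Shares of all tested genes called higher were 18.6% and 24.6% in knockout cells under abemaciclib and vehicle. For the drug they were 11% in knockout and 19.6% in control cells. AXL, a receptor tyrosine kinase often used as a YAP1 target, stayed below the filter with at most 1.60 CPM in any library.

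Of the other CCN family genes, CCN5 passed the filter and CCN3, CCN4 and CCN6 did not. CCN5 averaged 2.1 ± 0.652 CPM in knockout cells given abemaciclib, 1.36 ± 0.167 CPM in knockout cells given vehicle, 2.95 ± 0.481 CPM in control cells given abemaciclib and 1.67 ± 0.522 CPM in control cells given vehicle (SD, n = 4 each). It rose with the drug in knockout cells (log2 difference 0.37, limma adjusted p = 0.0464) and in control cells (0.58, 0.00148). The call in knockout cells was lost in some alternatives, among them without replicate 1 of knockout cells given abemaciclib (0.26, limma adjusted p = 0.199). Its difference for knockout against control cells was -0.37 under abemaciclib and -0.16 under vehicle, with neither passing the threshold (limma adjusted p = 0.0624 and 0.429).

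Beside TGFB2, 17 of 19 genes for ligands, latency proteins, activating integrins and receptors of the TGF-beta family were measured. Abemaciclib raised 6 and lowered 1 in knockout cells (median 0.06), and raised 10 and lowered 2 in control cells (median 0.35). Over all tested genes it raised 11% and lowered 27.4% in knockout cells, and raised 19.6% and lowered 31.1% in control cells. The drug effect differed between the genotypes for 8 of the 17, with 1 difference positive and 7 negative. A positive difference was called for 4.68% of all tested genes and a negative one for 6.16%. INHBB, the beta B subunit of activins and inhibins, averaged 171 ± 4.69 CPM in knockout cells given abemaciclib, 122 ± 3.65 CPM in knockout cells given vehicle, 127 ± 5.74 CPM in control cells given abemaciclib and 73.8 ± 4.86 CPM in control cells given vehicle (SD, n = 4 each). ITGB6, the beta subunit of an integrin that activates latent TGF-beta, rose with the drug by 0.52 in knockout and 1.22 in control cells. TGFB3 rose by 0.65 in knockout cells and 0.69 in control cells, and knockout cells had less of it than control cells (-0.31 under abemaciclib and -0.26 under vehicle).

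Between genotypes, 3 genes of this list were higher and 5 lower in knockout cells under abemaciclib, and 7 were higher and 1 lower under vehicle. Shares of all tested genes were 18.6% higher and 11.3% lower under abemaciclib, and 24.6% and 13.1% under vehicle. LTBP1, which tethers latent TGF-beta to the matrix, was lower in knockout cells under abemaciclib (log2 difference -0.51, limma adjusted p = 2.34e-07). THBS1, a matrix protein that activates latent TGF-beta and is also listed as a YAP1 target, averaged 178 ± 5.77 CPM in knockout cells and 133 ± 3.61 CPM in control cells under abemaciclib, and 152 ± 4.63 CPM in knockout cells and 158 ± 9.60 CPM in control cells under vehicle (SD, n = 4 each). It was higher in knockout cells under abemaciclib (0.42, limma adjusted p = 3.41e-10), while its difference under vehicle was -0.06 (0.284). TGFBR3, the co-receptor betaglycan that presents TGFB2 to its receptors, averaged 4.2 ± 0.636 CPM in knockout cells and 6.9 ± 1.01 CPM in control cells under abemaciclib, and 4.02 ± 0.634 CPM in knockout cells and 4.35 ± 0.587 CPM in control cells under vehicle (SD, n = 4 each). It was lower in knockout cells under abemaciclib (-0.60, limma adjusted p = 0.000134). TGFBR2, the type II receptor to which TGFB2 signals, stayed below the filter, with at most 0.467 CPM in any library.

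SMAD genes and genes known to respond to TGF-beta showed both directions, with 16 of 18 measured. Knockout cells had 4 higher and 3 lower than control cells under abemaciclib, and 7 were higher and 2 lower under vehicle. With abemaciclib 5 rose and 5 fell in knockout cells, and 6 rose and 3 fell in control cells. The shares of all tested genes called in either direction were 29.9% and 37.7% between genotypes under abemaciclib and vehicle. For the drug they were 38.4% in knockout and 50.7% in control cells. CDKN2B, which encodes the CDK4 and CDK6 inhibitor p15 and is induced by TGF-beta, averaged 11.2 ± 0.744 CPM in knockout cells given abemaciclib, 5.81 ± 0.319 CPM in knockout cells given vehicle, 4.41 ± 0.173 CPM in control cells given abemaciclib and 2.47 ± 0.476 CPM in control cells given vehicle (SD, n = 4 each). Its log2 differences were 1.17 and 0.98 for knockout against control cells under abemaciclib and vehicle, and 0.84 and 0.65 for the drug in knockout and control cells. PMEPA1, a feedback inhibitor of TGF-beta signalling, rose with the drug by 0.67 in knockout and 0.83 in control cells.

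Serum response factor and the actin cytoskeleton share targets with YAP1, and 18 of 19 such genes were measured. In knockout against control cells 7 were higher and 4 lower under abemaciclib, and 4 were higher and 3 lower under vehicle. Of all tested genes, 29.9% were called in either direction under abemaciclib and 37.7% under vehicle. With abemaciclib 8 rose and 3 fell in knockout cells, and 7 rose and 4 fell in control cells. The drug changed 38.4% of all tested genes in knockout and 50.7% in control cells. ZYX, the focal adhesion protein zyxin, averaged 48.0 ± 2.05 CPM in knockout cells given abemaciclib, 38.3 ± 2.34 CPM in knockout cells given vehicle, 36.8 ± 1.56 CPM in control cells given abemaciclib and 26.3 ± 1.73 CPM in control cells given vehicle (SD, n = 4 each), and was called higher in all 4 pairwise comparisons. FHL2, a LIM-domain cofactor, was lower in knockout than in control cells by log2 differences of -0.75 under abemaciclib and -0.52 under vehicle.

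Among mesenchymal and fibroblast markers, the summed level was lowest in control cells given vehicle, and COL1A1, at 40.6 to 60.6 CPM over all libraries, made up most of it. The summed level of the 11 genes ranged from 80.4 to 88.8 CPM in knockout cells given abemaciclib, 69.7 to 78.8 CPM in knockout cells given vehicle, 73.8 to 84.1 CPM in control cells given abemaciclib and 60.5 to 63.9 CPM in control cells given vehicle. Of the 5 that passed the filter, 1 was higher in knockout than in control cells under abemaciclib and 2 under vehicle, and the drug raised 2 in knockout and 3 in control cells. The 1 under abemaciclib was LUM, with at most 4.34 CPM in any library. COL1A1 did not pass there (0.14, limma adjusted p = 0.0566), and the list median was 0.03, against 0.04 for all tested genes. The summed level of the 11 luminal markers also followed the groups, with 17712 to 18089 CPM in knockout cells given abemaciclib, 14789 to 15200 CPM in knockout cells given vehicle, 13371 to 14035 CPM in control cells given abemaciclib and 11297 to 11494 CPM in control cells given vehicle. Of the 11, knockout cells had 4 higher and 6 lower than control cells under abemaciclib and 5 higher and 6 lower under vehicle, and the drug raised 6 and lowered 1 in each genotype. KRT8 and KRT18, whose reads were whole in 1 of 16 libraries, carry much of the sum: KRT8 averaged 6323 CPM in knockout cells and 3363 CPM in control cells under abemaciclib, while ESR1 (-0.34) and TFF1 (-0.73) were lower in knockout cells. The 6 basal markers summed to 11.5 to 14.1 CPM, 14.1 to 16.6 CPM, 14.1 to 17.5 CPM and 16.2 to 18.4 CPM in the same 4 groups, and EGFR, the one above the filter, was lower in knockout than in control cells given abemaciclib (-0.29, limma adjusted p = 0.00708). In RNA from whole cultures, more cells of a kind and more RNA per cell cannot be told apart, and the part of these shifts in the members' results was not tested.

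The genes with the profile closest to each of the 3 secreted members were found by the root-mean-square difference of centred log2(CPM + 1) values over the 16 libraries, among 13919 genes of unique symbol. For CCN1 they were RND3 at 0.187, SHC2 at 0.193 and the keratin KRT7 at 0.232, where CCN1's own root-mean-square deviation was 0.680. For CCN2 they were the surface glycoprotein CD24 at 0.191, the tubulin TUBA1A at 0.227 and FLRT3 at 0.231, against 0.492 for CCN2 itself. For TGFB2 they were the overlapping TGFB2-OT1 at 0.154, the oestradiol-producing enzyme HSD17B1 at 0.182 and the interferon-induced IFI44L at 0.193, against 0.721 for TGFB2 itself. RND3 averaged 40.5 ± 2.75 CPM in knockout cells given abemaciclib, 22.0 ± 1.83 CPM in knockout cells given vehicle, 30.2 ± 1.89 CPM in control cells given abemaciclib and 13.5 ± 0.83 CPM in control cells given vehicle (SD, n = 4 each), the same order of groups as CCN1.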

How the data were processed

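Cells were sent to a sequencing provider (Plasmidsaurus), where RNA was extracted, mRNA was turned into cDNA and libraries were made by tagmentation, per the labels' protocols. The submitters' processing notes name STAR 2.7.11, SAMtools 1.22.1, featureCounts of Subread 2.1.1, MultiQC 1.32 and the genome GRCh38; for the annotation release, the strand setting and multi-mapped reads, nothing is given in the sources used here. The authors deposited 1 table of CPM for 78986 features, each library summing to 1000000, of which 92 spike-in features were left out. Between 71.7% and 73.2% of values per library were whole reads (within 0.02 reads), so no count model was used.

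Values were taken as log2(CPM + 1), and the 16218 genes that reached 1 CPM in 4 or more libraries were kept. A single limma 3.58.1 fit (R 4.3.3) of 4 group means with an intensity trend gave the 4 pairwise comparisons and the difference between drug effects, with Benjamini-Hochberg adjustment over all tested genes, two-sided, at 0.05. The fit was also run on simulated counts with few genes changed, as many up as down. Far more genes were called in these data, so that run does not test the calls given here. Exact two-sided permutation tests over 70 assignments cannot go below p = 0.0286, which members without overlap between groups reached. Locations are from the GENCODE v29 annotation, by gene ID, and windows from RefSeq (GRCh38.p14), for 8 of 10 members (not CCN1 or TEAD1).

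Members and lists were chosen with earlier results of these data known. Named are all members, FAH, up to 4 called genes of largest difference per list and comparison, and the 3 nearest profiles of CCN1, CCN2 and TGFB2; AXL, TGFBR2, LTBP3, LTBP4, CCN3, CCN4 and CCN6 were named after their values were seen. Genes with reads that were not whole in many libraries (PTPN14, MYOF, KRT8, KRT18, ACTB) are uncertain. Alternatives were a pseudocount of 0.1, no filter, median-of-ratios rescaling, no trend, only the 2 groups compared, a replicate block and leaving out each library.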

Additional observations from a re-analysis of the deposited data

Results flagged for a closer look

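In 3 of 44 groups of 4 libraries tested, 1 library stood apart: Dixon's ratio, the gap to the nearest library over the whole range, exceeded the 95% critical value; chance gives about 1 in 20 groups. The ratio was 0.939 for ANKRD1 in control cells given vehicle, where replicate 1 was high, 0.847 for YAP1 in control cells given abemaciclib, where replicate 1 was high, and 0.837 for LATS2 in knockout cells given vehicle, where replicate 4 was low.

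The abemaciclib effect in knockout cells minus that in control cells passed limma's adjusted threshold for 16 genes, which are the members and list genes called. Among the members it was 0.70 for CCN2 and 0.36 for AMOTL2. Among YAP1 and TAZ targets it was -0.27 for MYOF. In the TGF-beta family list it was -0.70 for ITGB6, -0.55 for ITGB8, -0.51 for TGFBR3, -0.42 for LTBP1, -0.34 for LTBP4, -0.32 for LTBP3, -0.29 for INHBB and 0.47 for THBS1. Among genes that respond to TGF-beta it was -0.39 for BHLHE40. Among actin-related genes it was -0.23 for FHL2 and 0.22 for ACTB. Among luminal markers it was -0.17 for KRT19 and -0.15 for PGR. All are log2 differences. Of all 16218 tested genes, 1758 (10.8%) had a difference between drug effects called. The 16 genes came from the members and from 137 list genes, not all of which passed the filter. Such calls were thus common among all tested genes, and whether the 16 exceed that share was not tested. The difference for TGFBR3 was lost in some alternatives, among them without replicate 1 of control cells given abemaciclib (-0.42, limma adjusted p = 0.105). ACTB, KRT19, PGR and MYOF are uncertain, because their reads were whole in 8 or fewer of 16 libraries.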

How the results depend on the processing

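Of 50 member results, 29 kept their sign and their side of the threshold under all alternatives (22 per pairwise comparison, 21 for the difference between drug effects); 5 lost a call, 6 gained one and 10 changed sign in at least 1. Members called in knockout against control cells under vehicle numbered 3 with no filter, 3 with rescaling and 3 without the trend, against 6. With no filter, 1072 genes (494 positive, 578 negative) had different drug effects, against 1758 (759 and 999). The difference between drug effects on TGFB2 was 0.0099 with rescaling and -0.24 with a pseudocount of 0.1 (limma adjusted p = 0.579), against -0.01. Leaving out 1 library at a time gave 5 to 8 members called in knockout against control cells under abemaciclib and 4 to 6 under vehicle, 4 to 5 with the drug in knockout cells and 5 to 7 in control cells, and 2 to 3 for the difference between drug effects; the genes called numbered 4230 to 4830, 5450 to 6361, 5641 to 6486, 7695 to 8202 and 1479 to 1889 in the same order. Signs that changed on leaving out a library were all of values near 0. For knockout against control cells under abemaciclib, YAP1 spanned -0.0676 to 0.0271. For the drug in knockout cells, YAP1 spanned -0.0162 to 0.0435, WWTR1 -0.0034 to 0.0559 and LATS2 -0.0297 to 0.0888. For the drug in control cells, WWTR1 spanned -0.0347 to 0.0458 and LATS2 -0.0226 to 0.089. For the difference between drug effects, TGFB2 spanned -0.118 to 0.0873, AMOTL1 -0.0055 to 0.153, WWTR1 -0.0202 to 0.0619 and LATS2 -0.0738 to 0.0732. Libraries of the same replicate number showed no shared deviation from their group means (correlations of deviations from -0.0367 to 0.054). That does not tell whether they were handled together. With the replicate block, 3006 genes were higher and 1828 lower in knockout against control cells under abemaciclib, and 4002 and 2121 under vehicle; AMOTL2 lost its call under vehicle (adjusted p = 0.0503), ANKRD1 gained one under abemaciclib (0.048) and AMOTL1 gained one for the drug in control cells (0.0484), limma throughout. The causes were not tested. Depth limits the genes near 1 CPM most: TGFB2 in control cells given vehicle rested on 11 to 15 reads.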
